A study of Mus musculus with 8 samples.

Results

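The smooth muscle contractile genes examined here were Acta2, Actg2, Tagln, Cnn1, Myh11, Myl9, Tpm1, Tpm2, Cald1 and Smtn, 10 of the 55471 genes in a count table of SV-LECs. They were taken by symbol, as genes of the actin and myosin filaments of smooth muscle and of the proteins that bind them. The selection rule uses no measured value, but the list was chosen with earlier results of these data known. SV-LEC is an SV40-immortalized mouse line described as lymphatic endothelial, derived from mesenteric adventitial tissue. 4 libraries came from cells left untreated (svLEC_ctrl 1 to 4) and 4 from cells given 10 ng/ml TGFβ1 for 72 h (svLEC_tgfb1 1 to 4), all from this 1 line, grown in serum-containing medium. In the study's methods the 4 samples of a group are technical replicates, so errors and p-values below cover technical spread and not the spread between independent experiments.

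Total counts were between 18952504 and 26386941 per library, and a count of 3 corresponded to 0.113 to 0.162 CPM (counts scaled to the TMM-normalized size of the library), which covers counting error only. The first principal component held 87.5% of the variance and separated the groups. Among markers of the labelled cell type, Prox1, the transcription factor that defines lymphatic endothelium, averaged 0 CPM in untreated and 0.0710 CPM in treated libraries, and the hyaluronan receptor Lyve1 averaged 0.0693 and 0 CPM. The pan-endothelial genes Pecam1 and Cdh5 averaged at most 0.168 CPM in either group. Podoplanin (Pdpn) averaged 342 and 313 CPM and Flt4, the receptor for VEGF-C, 21.6 and 29.3 CPM, so only part of the lymphatic marker list was measured at substantial levels. Of 6 known TGFβ1 target genes listed as a check of the response, 5 were tested and all 5 rose, beside 37.6% of all genes tested. Among them were Ltbp2 and Pmepa1, with log2 fold changes of 2.63 and 1.85, and Smad7 (0.89) and Skil (0.63). Tgfbi had 8 counts in all libraries together and was not tested.

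Smooth muscle contracts when myosin filaments pull on actin filaments. The heavy chain Myh11 is the motor, and phosphorylation of the regulatory light chain Myl9 switches it on. Acta2 and Actg2 form the actin filament, tropomyosins Tpm1 and Tpm2 lie along it, and calponin (Cnn1), caldesmon (Cald1), transgelin (Tagln) and smoothelin (Smtn) bind it. Many of these genes carry CArG boxes, the binding sites of serum response factor (SRF), which works with myocardin or with the related MRTF coactivators. TGFβ1 is well known as an inducer of Acta2 and Tagln in fibroblasts and mural cells, and Acta2 and Tagln are commonly used as markers of the myofibroblast state.

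After TGFβ1, 9 of the 10 contractile genes rose and 1, Smtn, fell at a false discovery rate (FDR) under 0.05 in the likelihood ratio test of edgeR over all 13818 genes tested. All 10 genes passed the filter on low counts, Myh11 only through the treated libraries. Over all genes tested, 37.6% were called higher and 38.0% lower. For 9 contractile genes every treated library lay above every untreated one, and for Smtn every treated library lay below. Of all genes tested, 34.7% had all treated libraries above and 35.1% all below. The median log2 fold change of the 10 genes was 1.21, beside -0.006 for all genes. 5 of them (Actg2, Acta2, Myh11, Cnn1 and Myl9) were called higher with a log2 fold change above 1, as were 10.9% of all genes tested. Together the 10 genes took 4613 to 4738 CPM in untreated and 6655 to 6918 CPM in treated libraries. In bulk RNA, a change in the number of cells that express a gene and a change in RNA per cell cannot be told apart.

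**Figure D1:**
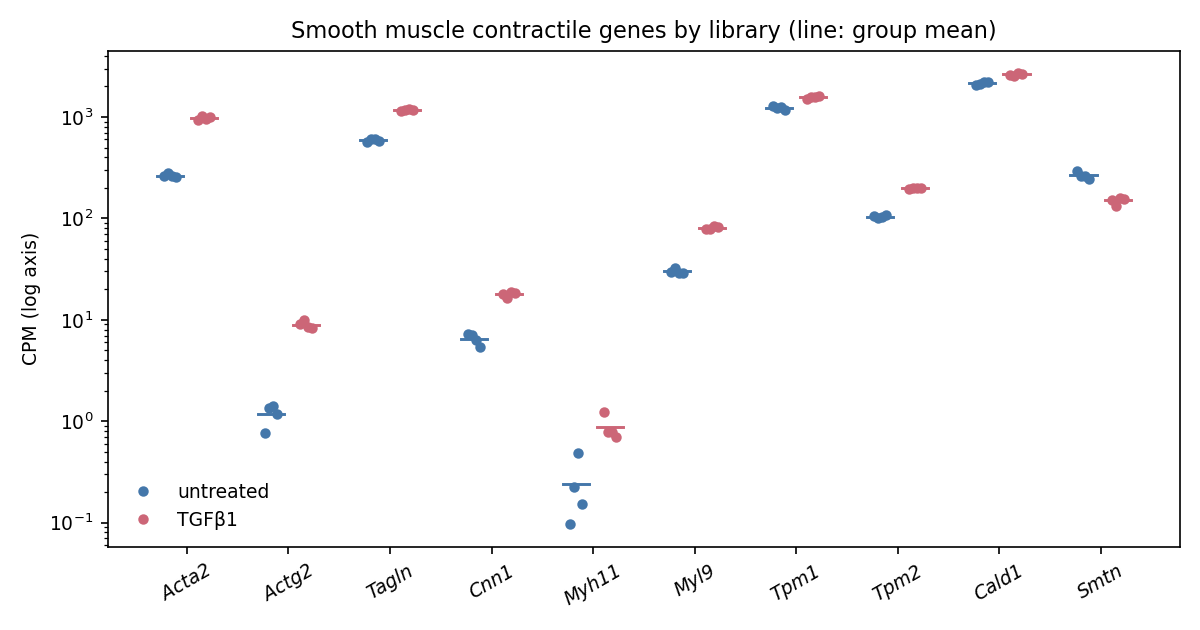
Level of each contractile gene in every library, in CPM on a log axis, for untreated (blue) and TGFβ1-treated (red) cells. Points are the 4 libraries of a group and lines the group means. The groups are apart for all 10 genes, with Smtn the gene that is lower after TGFβ1, and the highest Myh11 point is at 1.24 CPM.

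RefSeq promoters (GRCm38.p6) were available for 7 of the 10 genes, and the 250 bases upstream of 1 annotated start are shown for 3 of them. The bases just after that start occur in 1 of 2 annotated transcripts of Acta2, 3 of 4 of Myl9 and 3 of 10 of Smtn. The Smtn window lies within the annotated span of the gene, and the Acta2 and Myl9 windows overlap the spans of their genes in part. A CArG box was counted only in its strict form, which is CC, 6 letters of A or T, and GG. Acta2 is shown as the gene with the largest test statistic of the 10. Myl9 is shown as the 1 gene of the 7 with a CArG box of this form, and Smtn as the 1 gene that fell. They read 5′ to 3′ on the gene's strand, with CArG boxes and CArG-like sequences in capitals. A CArG-like sequence has 1 G or C among the 6 core letters, which are otherwise A or T, and was searched for after the CArG boxes had been counted.
Acta2 promoter, minus strand, chr19:34255374-34255623: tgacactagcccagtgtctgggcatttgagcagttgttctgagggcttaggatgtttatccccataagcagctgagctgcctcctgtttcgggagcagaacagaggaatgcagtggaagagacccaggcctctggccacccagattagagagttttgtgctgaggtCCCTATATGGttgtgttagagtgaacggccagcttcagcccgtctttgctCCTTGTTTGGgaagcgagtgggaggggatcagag
Myl9 promoter, plus strand, chr2:156775214-156775463: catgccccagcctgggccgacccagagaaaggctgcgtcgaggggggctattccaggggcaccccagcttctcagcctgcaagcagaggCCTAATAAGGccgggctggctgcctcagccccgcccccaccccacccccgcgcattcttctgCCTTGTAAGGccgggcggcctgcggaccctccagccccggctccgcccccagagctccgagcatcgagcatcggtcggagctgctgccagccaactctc
Smtn promoter, minus strand, chr11:3539293-3539542: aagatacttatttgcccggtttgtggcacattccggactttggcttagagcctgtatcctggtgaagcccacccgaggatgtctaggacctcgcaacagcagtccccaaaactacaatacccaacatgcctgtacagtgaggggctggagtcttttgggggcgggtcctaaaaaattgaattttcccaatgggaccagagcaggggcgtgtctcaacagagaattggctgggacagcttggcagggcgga
Both strands of each window, from 250 bases before to 50 after the start, were searched. The Myl9 promoter held a CArG box with its first base at -161 and a CArG-like sequence at -99. The Acta2 promoter held 2 CArG-like sequences, at -84 and -34, and no CArG box of the strict form. Whether CArG-like sequences act as SRF sites was not tested. No CArG box or CArG-like sequence was found in the windows searched for Cnn1, Tpm1, Tpm2, Cald1 and Smtn. Other starts of these genes were not searched. Of 32851 mouse promoters of this length, 1.63% held a CArG box and 8.50% a CArG-like sequence. The SMAD sequence CAGACA, in 21.0% of promoters, was found at -236 in Acta2 and at -130 in Cald1. The SMAD palindrome GTCTAGAC, in 0.213% of promoters, was in none of these 7. The MCAT sequence CATTCC, a TEAD factor motif present in 14.7% of promoters, was found in Acta2 (-146), Tpm1 (-56), Cald1 (-153) and Smtn (-222). These are matches of letters in a short window and say nothing of binding.

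Acta2 (ENSMUSG00000035783, chr19:34241090-34255590, GRCm38), the smooth muscle α-actin, had 262, 277, 262 and 253 CPM in the untreated libraries and 943, 1028, 957 and 997 CPM in the treated ones. All treated libraries lay far above the untreated ones. The log2 fold change was 1.89 (SE 0.0389), a 3.72-fold rise, with a likelihood ratio statistic of 1736, for which the FDR was too small to represent, and a quasi-likelihood FDR of 5.13e-14. In fold change 4.05% of all genes tested lay above it.

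Actg2 (ENSMUSG00000059430, chr6:83512905-83536265), the γ-actin of enteric smooth muscle, was measured from few reads. It had 0.771, 1.35, 1.397 and 1.17 CPM untreated, from 16 to 36 counts a library, and 9.03, 9.93, 8.51 and 8.27 CPM after TGFβ1. The groups did not overlap, and its log2 fold change of 2.90 (SE 0.201, FDR 2.97e-83), or 7.49-fold, was the highest of the 10. In fold change 1.74% of all genes tested lay above it.

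The actins differed in how they changed. The cytoplasmic β-actin gene Actb had 2937 ± 114 CPM untreated and 3009 ± 50.6 CPM after TGFβ1 (SD, n = 4), with a log2 fold change of 0.04 (FDR 0.428) that turned to -0.03 when libraries were scaled by total counts alone. The cytoplasmic γ-actin gene Actg1 rose from 185 to 269 CPM (log2 fold change 0.54, FDR 4.18e-24), although 33.5% of its 75-base stretches also occur in other genes, mostly pseudogenes. Acta1, the skeletal muscle actin, which passed the filter only through the treated libraries, rose from 0.137 to 0.856 CPM, and cardiac Actc1 had 5 counts in all 8 libraries and was not tested. Per exon length, Acta2 made up 8.82% to 9.98% of the 6 actins in untreated and 25.7% to 27.7% in treated libraries. The mean difference of 17.3 percentage points had an exact two-sided permutation p of 0.0286, the smallest that 4 libraries against 4 allow. Actg2 made up 0.0589% ± 0.0156 of the actins untreated and 0.342% ± 0.0285 after TGFβ1 (SD, n = 4), a difference of 0.283 percentage points that was 0.175 points without division by exon length. No 75-base stretch of Acta2 or Actg2 exons occurs in the transcripts of another gene.

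Both tropomyosins rose. Tpm1 (ENSMUSG00000032366, chr9:67022590-67049406) had 1287, 1224, 1253 and 1175 CPM untreated and 1505, 1558, 1581 and 1605 CPM after TGFβ1. The groups stood apart and the log2 fold change was 0.34 (SE 0.0342, FDR 1.61e-15). Tpm2 (ENSMUSG00000028464, chr4:43514711-43523765) had 106, 101, 102 and 108 CPM untreated and 194, 200, 201 and 201 CPM treated, with a log2 fold change of 0.93 (SE 0.0250, FDR 2.67e-115). The Tpm2 level thus nearly doubled.

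The relatives Tpm3 and Tpm4, expressed in most cells, changed by 0.14 and 0.11 on the log2 scale (FDR 3.83e-04 and 7.07e-03), and neither call held under scaling by total counts (FDR 0.0758 and 0.324). The Tpm4 call was also lost with no filter on low counts (FDR 0.146). Per exon length, Tpm2 rose from 4.48% ± 0.162 to 7.37% ± 0.113 and Tpm1 from 23.8% ± 0.570 to 25.9% ± 0.101 of the 4 tropomyosins (SD, n = 4). Each of these differences had an exact two-sided permutation p of 0.0286. Counts per gene do not separate the muscle and non-muscle transcripts of Tpm1, Tpm2 or Cald1.

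Myh11 (ENSMUSG00000018830, chr16:14194535-14291372), the smooth muscle myosin heavy chain and the marker most specific to mature smooth muscle, was measured from very few reads. It had 2, 6, 11 and 3 counts in the untreated libraries, or 0.0964, 0.225, 0.480 and 0.152 CPM. In the treated libraries it had 23, 16, 16 and 18 counts, or 1.24, 0.779, 0.787 and 0.699 CPM. The groups did not overlap, and untreated library 1 lay below its limit of 3 counts. The log2 fold change was 1.80 (SE 0.473, FDR 3.85e-07, quasi-likelihood FDR 6.32e-04), the least precise of the 10. The gene passed the main filter only through the treated libraries, where it was higher, and a filter of 1 CPM in 4 libraries removed it.

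The non-muscle heavy chain Myh9 had 884 ± 56.7 CPM untreated and 1309 ± 37.1 CPM treated (SD, n = 4; log2 fold change 0.57, FDR 2.39e-29). Myh10 had 524 and 500 CPM and was not called (FDR 0.114), but was called lower under scaling by total counts (log2 fold change -0.13, FDR 9.74e-04) and without untreated library 4 (-0.09, FDR 0.0339). Myh14, with 0.840 and 0.727 CPM, was not called. Myh11 remained a minute share of these 4 heavy chains per exon length, 0.0264% ± 0.0183 untreated and 0.0770% ± 0.0196 after TGFβ1 (SD, n = 4, exact two-sided permutation p of 0.0286). The difference of 0.0507 percentage points was 0.0314 points without division by exon length. This p is the smallest that 4 libraries against 4 allow. It rests on 2 to 11 Myh11 counts in each untreated library, and Myh11 passed the filter only through the treated ones. It is therefore not taken as support for a change of the share.

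Myl9 (ENSMUSG00000067818, chr2:156775420-156781658), the smooth muscle regulatory light chain, had 29.5, 32.2, 29.0 and 29.3 CPM untreated and 78.4, 79.2, 83.2 and 82.4 CPM after TGFβ1. The treated libraries lay close together and well above the untreated ones. The log2 fold change was 1.43 (SE 0.0407, FDR 1.07e-155). The closely related light chain genes Myl12a and Myl12b had log2 fold changes of -0.05 and -0.08 and were not called (FDR 0.226 and 0.290), though scaling by total counts called both lower (FDR 3.72e-03 and 0.0498). The essential light chain Myl6 rose by 0.27 on the log2 scale.

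Per exon length, Myl9 made up 20.8% to 23.6% of the 3 regulatory light chains untreated and 43.0% to 44.4% after TGFβ1. The difference of 21.9 percentage points (exact two-sided permutation p of 0.0286) was 12.5 points without division by exon length. Myl12a and Myl12b share 18.5% and 24.7% of their 75-base stretches with other genes, and Myl9 shares none. For Myl12b the partner is another annotated entry of the same name, which overlaps 739 bases of its exons on the same strand. An entry named Myl12b also overlaps 462 bases of Myl12a exons on the same strand. How reads there were counted is not known, so the levels of Myl12a and Myl12b, and with them the Myl9 share, may be affected. Untreated, Myl12a had 87.7 and Myl12b 5.27 CPM per kb, so the share depends mainly on Myl12a. With shared stretches left out of the lengths the difference was 20.2 points.

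The actin-binding proteins did not move together. Tagln (ENSMUSG00000032085, chr9:45929619-45936058), or SM22α, had 565, 612, 606 and 581 CPM untreated and 1135, 1169, 1208 and 1183 CPM after TGFβ1. It was the member with the highest level per exon length in both groups, and its log2 fold change was 0.99 (SE 0.0326, FDR 6.19e-124). An antisense gene, Gm48529, overlaps 1241 bases of its exons but held 755 counts over the 8 libraries against 153400 for Tagln. The strand setting of the counting step was not given in the sources used here.

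Tagln2, its broadly expressed relative, had 370 and 375 CPM, a log2 fold change of 0.02 (FDR 0.755) that was -0.05 under scaling by total counts. Tagln accordingly rose from 62.5% ± 0.852 to 76.6% ± 0.524 of the 3 transgelins per exon length (SD, n = 4, exact two-sided permutation p of 0.0286). The difference of 14.1 percentage points was 9.39 points when only stretches not shared with another gene were counted in the length. Tagln3 had 84 counts in all and was not tested.

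Cnn1 (ENSMUSG00000001349, chr9:22099216-22109630), calponin 1, had 7.28, 7.10, 6.38 and 5.38 CPM untreated and 17.9, 16.3, 18.99 and 18.2 CPM treated. The groups did not overlap, and the log2 fold change was 1.44 (SE 0.109, FDR 3.38e-48). Cnn2 rose from 299 to 516 CPM (log2 fold change 0.79), while Cnn3 had 351 and 350 CPM and was not called (FDR 0.951), with a sign that depended on the scaling. Cnn1 went from 0.994% ± 0.0967 to 1.97% ± 0.109 of the 3 calponins per exon length (SD, n = 4, exact two-sided permutation p of 0.0286).

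Cald1 (ENSMUSG00000029761, chr6:34598500-34775473), caldesmon, had 2079, 2126, 2215 and 2214 CPM untreated and 2618, 2545, 2697 and 2666 CPM after TGFβ1. The groups did not overlap, but the log2 fold change of 0.29 (SE 0.0291, FDR 2.47e-12) was the smallest of the 10, and 31.2% of all genes tested lay above it.

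Smtn (ENSMUSG00000020439, chr11:3517523-3540612), smoothelin, was the exception. It had 295, 259, 262 and 246 CPM untreated and 153, 132, 160 and 156 CPM after TGFβ1. Every treated library was lower than every untreated one, and the log2 fold change was -0.82 (SE 0.0838, FDR 1.14e-33). In fold change 90.7% of all genes tested lay above it. Counts per gene do not separate its 10 annotated transcripts, so which of them fell is not known. The antisense gene Gm11946 overlaps 714 bases of Smtn exons and held 47 counts over all libraries, against 36666 for Smtn. The smoothelin-like gene Smtnl2 was also lower, at 3.18 ± 0.405 CPM untreated and 1.31 ± 0.359 CPM treated (SD, n = 4; log2 fold change -1.30, FDR 3.69e-12). Smtnl1 had 25 counts in all and was not tested.

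**Figure D2:**
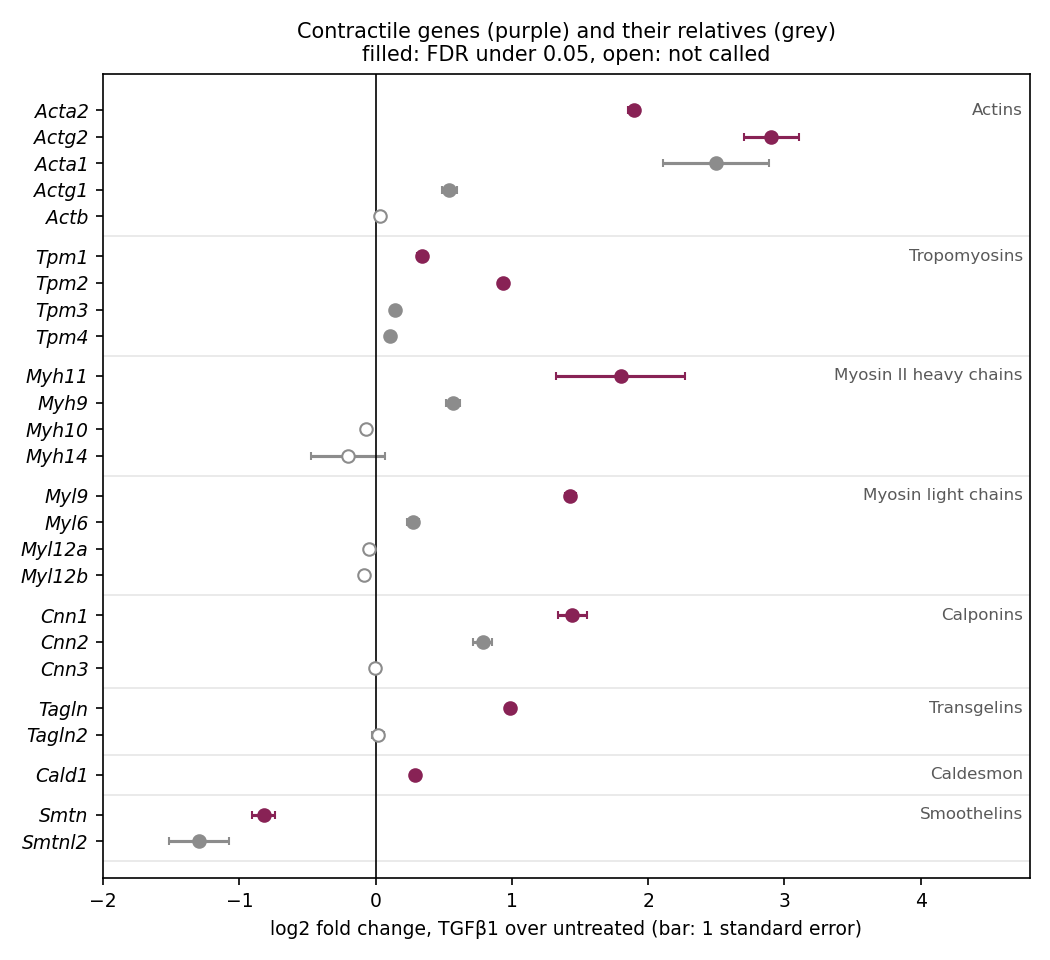
Log2 fold change (TGFβ1 over untreated) of the contractile genes (purple) and of their relatives in the same protein families (grey), with bars of 1 standard error. Open circles were not called at an FDR of 0.05. Smooth muscle members lie to the right of most non-muscle relatives, and Smtn lies at -0.82. Under scaling by total counts Actb and Tagln2 turn from above to below 0 and the Tpm3 and Tpm4 calls are lost. Cnn3 turns with DESeq2.

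The order of levels changed with treatment. Per kb of exon, untreated cells had most Tagln (297 CPM per kb), followed by Tpm1 (190) and Cald1 (179), whose ranges overlapped, then Acta2 (120), Smtn (60.6), Tpm2 (35.8), Myl9 (25.8), Cnn1 (2.39), Actg2 (0.752) and Myh11 (0.0314 CPM per kb). After TGFβ1 the order was Tagln (590 CPM per kb), Acta2 (447), Tpm1 (241), Cald1 (219), Myl9 (69.5), Tpm2 (68.4), Smtn (34.3), Cnn1 (6.53), Actg2 (5.74) and Myh11 (0.115 CPM per kb). Myl9 and Tpm2 overlapped in the treated libraries, as did Cnn1 and Actg2, and all other neighbours stood apart. Acta2 had moved above Tpm1 and Cald1, and Smtn below Myl9 and Tpm2. The exon length used is the union of all annotated transcripts, which lowers the level per kb of genes with many isoforms, such as Cald1 with 12041 bases and Tpm1 with 6485.

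**Figure D3:**
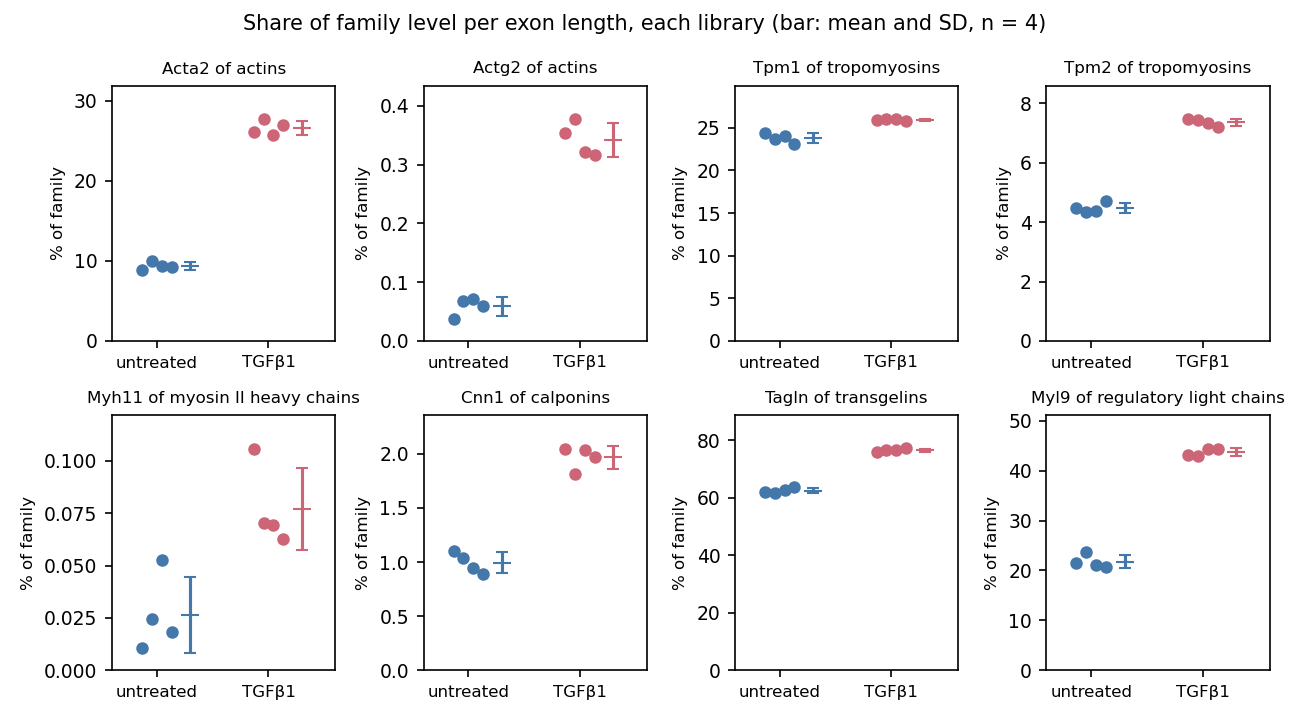
Share of contractile genes in their protein families, in percent of each family's summed CPM per kb of exon, for each library. Points are libraries and bars the mean and SD of 4. Acta2 went from 9.35% to 26.6% of actins and Myl9 from 21.8% to 43.7% of regulatory light chains, whereas Tpm1 moved by 2.14 percentage points and Myh11 stayed under 0.11%.

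SRF and its cofactors were then examined, 10 genes in all, of which 9 were tested, 5 rose and 3 fell, with a median log2 fold change of 0.23. Of all genes tested, 37.6% were called higher and 38.0% lower. Srf itself rose from 38.7 ± 4.29 to 52.5 ± 3.77 CPM (SD, n = 4; log2 fold change 0.44, FDR 4.94e-08). The coactivators Mrtfa (log2 fold change 0.72) and Mrtfb (0.53) rose, as did the ternary complex factors Elk3 (1.03) and Elk4 (0.23, with overlapping groups), which also partner SRF. Myocardin (Myocd), the muscle-restricted coactivator, had 3 counts in all 8 libraries together and was not tested. Klf4, a factor that represses smooth muscle genes, fell from 145 ± 9.20 to 59.6 ± 4.43 CPM (SD, n = 4; log2 fold change -1.28, FDR 2.05e-92). Foxo4, which binds myocardin, fell from 44.0 to 21.9 CPM (log2 fold change -1.005, FDR 1.44e-31). Gata6 was called lower by 0.14 on the log2 scale (FDR 0.0288), with overlapping groups, and the call was lost with the replicate block (FDR 0.0502) or without any of untreated libraries 1 and 2 or treated libraries 1, 2 and 3 (FDR up to 0.109). Elk1 was not called (FDR 0.582).

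Of 15 cytoskeletal genes known as SRF targets, all 15 were tested, 11 rose and 4 fell, beside 37.6% higher and 38.0% lower over all genes tested, with a median log2 fold change of 0.40. The changes of largest size were those of Fhl2 (1.17), Tgfb1i1 (1.13) and Csrp2 (1.04). The 4 that fell, named after their values were seen, were Fhl1 (-0.67), Filip1l (-0.26), Zyx (-0.24) and Vcl (-0.12).

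Of 18 other genes characteristic of smooth muscle, 12 were tested, 9 rose and 3 fell, beside 37.6% higher and 38.0% lower over all genes tested, with a median log2 fold change of 1.10. Casq2 and Lmod1 passed the filter only through the treated libraries, where they were higher, and Casq2 had 3 to 6 counts in each untreated library. The largest changes were those of Casq2, a calcium store protein (0.186 ± 0.0309 to 2.16 ± 0.236 CPM, log2 fold change 3.49), the intermediate filament gene Synm (2.97 ± 0.459 to 26.5 ± 0.427 CPM, 3.16) and Lmod1, an actin nucleator of smooth muscle (0.638 ± 0.169 to 3.68 ± 0.489 CPM, 2.56; SD, n = 4). Their treated libraries all lay above the untreated ones. Ppp1r14a, also among those that rose, had 4 to 13 counts a library and was not called by the quasi-likelihood test or DESeq2. The 3 that fell, named after their values were seen, were Hspb6 (log2 fold change -1.42), Cacna1c (-0.35) and Mylk (-0.21, FDR 0.0303, with overlapping groups). Kcnmb1, a potassium channel subunit of mature smooth muscle, had no count in any library, and Pln had 1.

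Of the 16 genes that control phosphorylation of the myosin light chain, 5 were higher, 7 lower and 4 not called, near the shares over all genes tested (37.6% higher and 38.0% lower), with a median log2 fold change of -0.07. Ppp1r12b, a myosin phosphatase subunit, rose from 70.4 to 149 CPM (log2 fold change 1.08), and the catalytic subunit gene Ppp1cb fell from 524 to 341 CPM (-0.62). The phosphatase inhibitor Ppp1r14a was called higher (0.80, FDR 0.0303) at 0.306 and 0.529 CPM, with overlapping groups, and was not called by the quasi-likelihood test (FDR 0.0501) or DESeq2 (FDR 0.122). Without untreated library 2, 3 or 4 or treated library 2 or 3 it was not called either (FDR up to 0.106). Mylk, the light chain kinase, Ppp1r12b and Ppp1r14a belong both to this list and to the list of other smooth muscle genes.

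**Figure D4:**
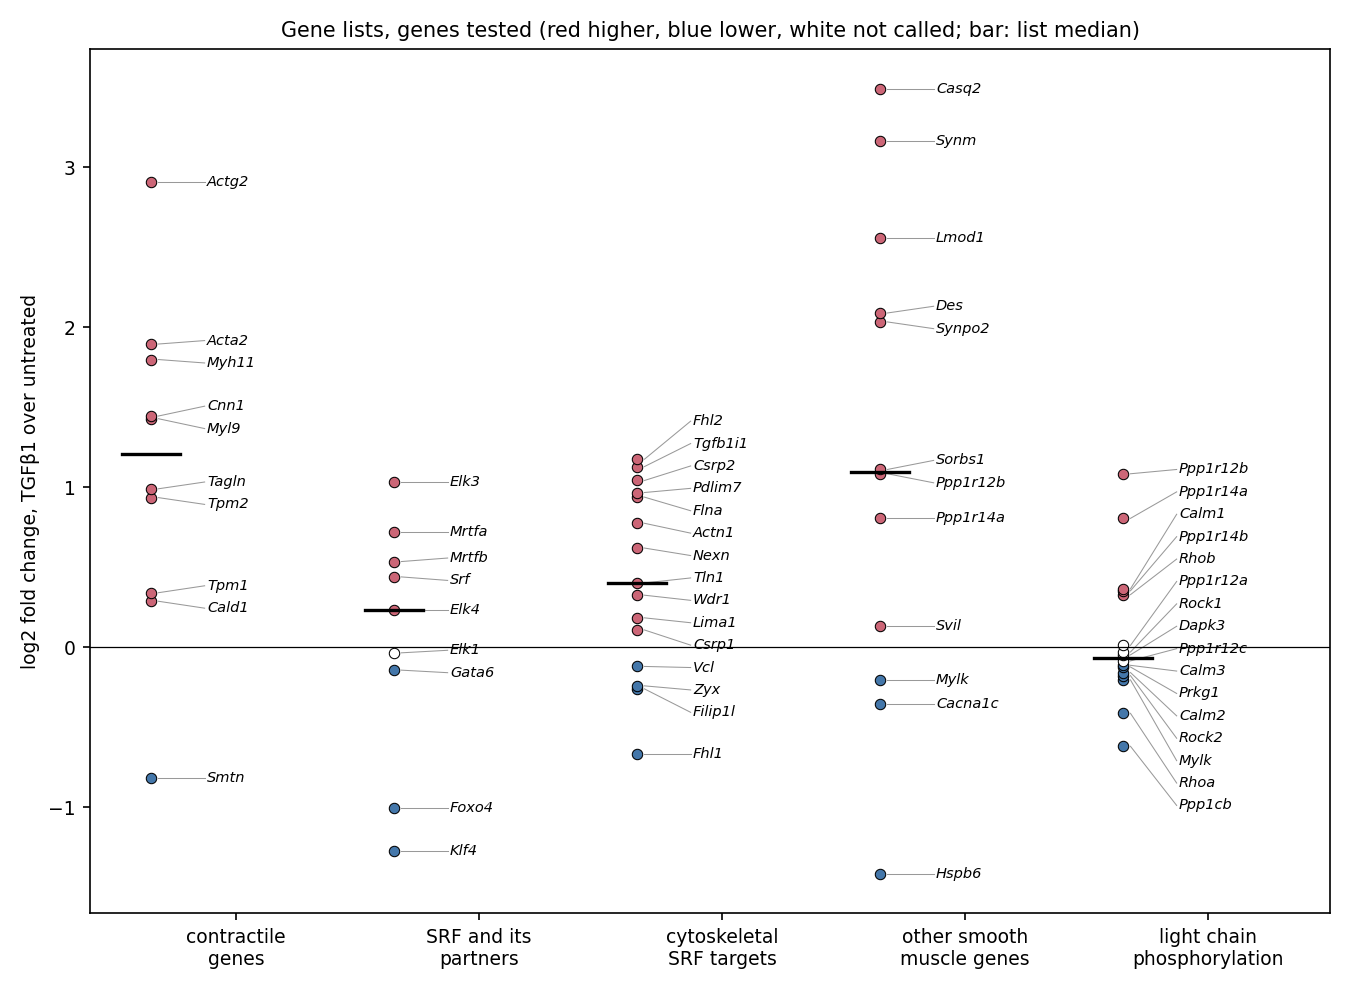
Log2 fold changes of the contractile genes and of 4 related lists, for the genes tested, with red points called higher, blue called lower and white not called. Bars are list medians. The contractile genes and the other smooth muscle genes have medians of 1.21 and 1.10, the SRF partners and SRF targets 0.23 and 0.40, and the light chain phosphorylation genes -0.07.

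Markers of other cell types also changed, in both directions, and their part in these results was not tested. Of 7 mural cell markers, 4 were tested and all 4 rose, beside 37.6% higher and 38.0% lower over all genes tested. The summed level of the 7 went from 187 to 192 CPM in untreated to 899 to 941 CPM in treated libraries. Notch3 (log2 fold change 2.79), Mcam (2.60) and Cspg4 (0.85) led the list, whereas Rgs5 had 18 counts in all, Abcc9 2 and Kcnj8 1. Of 11 endothelial markers, 6 were tested, with 4 higher and 1 lower beside the same shares over all genes. Eng (1.21), Kdr (0.93) and Flt4 (0.44) led the list. The summed level of the 11 was 102 to 106 CPM untreated and 199 to 208 CPM treated. Tie1 was at 0, and Cldn5 and Emcn had 2 and 3 counts in all libraries together.

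Of 8 fibroblast markers, 6 were tested, 2 rose and 4 fell, beside 37.6% higher and 38.0% lower over all genes tested. These shares also stand beside the counts of the lists that follow. The largest changes were in Dcn (-1.91), Pdgfra (-1.47) and Fap (1.37, at 0.339 and 0.858 CPM). Fap passed the filter only through the treated libraries. Summed levels of the 8 overlapped between the groups (6152 to 8151 and 7217 to 8454 CPM). Most of the sum came from Col1a1 and Col3a1, named after their values were seen, which moved in opposite directions. Col1a1 went from 3459 to 6057 CPM and Col3a1 from 3408 to 1805 CPM. Striated muscle markers summed to 1.06 to 1.24 CPM untreated and 10.9 to 12.2 CPM treated. Of 9 such genes 3 were tested and 2 rose, the cardiac troponin Tnnt2 (0.318 ± 0.0844 to 9.22 ± 0.804 CPM, SD, n = 4, log2 fold change 4.82) and Ryr1 (2.01), while Myod1 was at 0. All 3 tested genes passed the filter only through the treated libraries, and in each untreated library Tnnt2 had 4 to 10 counts and Ryr1 2 to 5. Leukocyte markers, with Adgre1 at 0 and Ptprc and Itgam at 1 and 6 counts in all, summed to 5.83 to 7.82 and 14.9 to 17.0 CPM, nearly all from Cd68 (log2 fold change 1.19), the 1 gene tested of 4. Epithelial markers stayed at or under 4.11 CPM in sum, and the 2 of 4 tested, Krt18 (2.47) and Krt8 (1.99), rose and had passed the filter only through the treated libraries.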

How the data were processed

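RNA of SV-LECs, untreated or treated with TGFβ1, was sequenced by the authors as single-end 75-base reads from stranded poly(A) libraries. Per the submitters' processing notes, bcl2fastq 2.20.0.422, STAR 2.7.3a and featureCounts 1.5.1 were used with GRCm38. The deposited values are raw counts of reads per gene. The strand setting, the treatment of reads that map to several genes and the annotation release were not given in the sources used here. Groups were taken from the sample labels.

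Groups were compared with edgeR 4.0.16 in R 4.3.3 (filterByExpr, TMM, likelihood ratio test, FDR of 0.05 by Benjamini-Hochberg over 13818 genes). SEs are those of the difference between group means of log2 CPM, with 0.5 added to each count, over 4 libraries a group. Shares within protein families used CPM per kb of exon (GENCODE M21) and exact two-sided permutation tests, adjusted over 8 shares by Benjamini-Hochberg (adjusted p of 0.0286 for each). Alternatives were the quasi-likelihood test, DESeq2 1.42.0, 2 other scalings, 2 other filters, a prior count of 2, an FDR of 0.01, glmTreat, the replicate block and each library left out. The scripts were tested on simulated data. The 10 genes, lists and tests were chosen with earlier results of these data known. Named genes were the 10 genes, all genes of the paralog and SRF partner lists, the 3 largest called changes of each other list, and cell type markers at or near 0. 1 gene under this rule is not reported here.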

Additional observations from a re-analysis of the deposited data

Results flagged for a closer look

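The levels of the 10 contractile genes and the 8 family shares, in each group, make 36 sets of 4 libraries. In these sets a value apart from the other 3 was found in 2 by Dixon's test at its 95% level. Chance alone flags about 1 in 20 such sets. Myh11 was at 1.24 CPM in treated library 1, against 0.699 to 0.787 CPM in the other treated libraries. Myl9 was at 32.2 CPM in untreated library 2, against 29.0 to 29.5 CPM in the other untreated libraries. With any library left out, the log2 fold change of Myh11 was between 1.55 and 2.35 and that of Myl9 between 1.41 and 1.46, and both remained called higher.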

How the results depend on the processing

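Of the 10 contractile genes, 9 were called higher and 1 lower under every alternative except 2. The filter of 1 CPM in 4 libraries removed Myh11 and left 8 higher and 1 lower, and glmTreat, which tests against an absolute log2 fold change of 1, called 5 higher and 0 lower (Tagln, Tpm1, Tpm2, Cald1 and Smtn were not called). Over all genes glmTreat called 1082 higher and 608 lower. The contractile genes held their direction in all 18 alternatives that gave a value, with the highest FDR of any left-out library at 2.53e-05 (Myh11). Scaling by total counts moved the median of all genes to -0.07 and the share of calls that were higher from 49.7% to 44.0%, and with no filter the median was 0.07. Same-numbered libraries showed no sign of pairing, with correlations from -0.152 to -0.0344, against -0.188 to 0.202 for differently numbered ones. Correlations of deviations from means of 4 libraries cannot settle whether samples were paired. With the replicate block 9 contractile genes were called higher and 1 lower, and over all genes 5075 were higher and 5077 lower, so the block changed no call among the 10. Some genes without a call changed sign. Actb was at -0.03 (-0.03207) and Tagln2 at -0.05 (-0.05078) under total counts, and Tagln2 was at -0.01458 with no filter. Cnn3 was at 0.005066 with DESeq2, 0.005082 with its size factors and 0.01097 with the 1 CPM filter. With libraries left out, Cnn3 ranged from -0.02518 to 0.0123, Tagln2 from -0.01433 to 0.05116, Elk1 from -0.06729 to 0.001125 and Myh14 from -0.3231 to 0.02273. The 8 share differences held their direction under both other length settings and with any library left out, where no p was computed and only values were compared. Depth limits Myh11, with at most 23 counts a library.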
